A study of Mus musculus with 96 samples.

Results

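Mouse bone marrow dendritic cells 12 to 24 h after LPS were set against the same cells 12 to 24 h after pIC, across all genes of the arrays. The arrays titled Lps at 12, 16 and 24 h (6 arrays) were compared with those titled Pic at the same hours (6 arrays), which makes 12 of the 96 arrays of the study. The study gave such cells 1 of 5 Toll-like receptor ligands, called LPS, pIC, PAM, CpG and GRD, and kept unstimulated cells as controls. That LPS is lipopolysaccharide and pIC the synthetic double-stranded RNA poly(I:C) is known from outside the labels. The labels give the cells as primary and from mouse, name no strain, genotype, age or dose, and give no treatment besides the ligand. As far as they say, the groups differ in treatment by ligand alone. Their arrays also lay in different plate rows. LPS and pIC had 2 arrays per time, and 8 arrays held unstimulated cells, with 1 array at each of 0, 1, 2, 4, 6, 8, 12 and 24 h. The labels do not tie the 2 arrays of a time to separate cultures, so the spread between samples that enters the p-values may be purely technical.

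As background, lipopolysaccharide is a component of the outer membrane of Gram-negative bacteria and is sensed by TLR4 with its co-receptor CD14. TLR4 signals through the adaptors MyD88 and TRIF, which lead to NF-kB, the transcription factor of inflammatory genes, and to IRF3, which switches on the interferon beta gene. Poly(I:C) is sensed by TLR3 in endosomes, which uses TRIF alone, and by RNA sensors of the cytosol. Secreted type I interferon then acts back on the cells through JAK and STAT proteins and induces antiviral genes. Dendritic cells stimulated in this way release cytokines and chemokines and present antigen to T cells.

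All values are intensities with a floor of 20, below which the deposited table holds none. Where all 6 arrays of a ligand lay at 20, the level there is an upper bound, and the size of a fold or difference against it is a minimum. Per array the median intensity ran from 53.9 to 57.2 with LPS and from 52.8 to 55.9 with pIC, and 33.6% to 34.3% of the probe sets lay at the floor. The 2 arrays of a group correlated with Pearson's r of 0.996 to 0.997 across genes, which are not independent replicates, and 0 to 2 genes per pair lay more than 2-fold apart. On the first principal component, with 54.0% of the variance, all 6 LPS arrays lay on the opposite side of 0 from all 6 pIC arrays, and the second, with 25.7%, ran with time. LPS and pIC each had plate rows apart from the other, and each of their times a plate column of its own. Place on the plate thus cannot be told apart from ligand or time. Precision is set by having 6 arrays per ligand.

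At 12 to 24 h the neutrophil-attracting chemokine genes Cxcl1, Cxcl2 and Cxcl5, the genes of interleukins 1, 6 and 12 and that of the inducible cyclooxygenase were many-fold higher with LPS than with pIC. The genes of interferon beta, of 4 of 10 interferon-induced GTPases and of the chemokines Cxcl11 and Cxcl9, which interferon induces, were lower with LPS. Differences are of log2(intensity + 1), LPS minus pIC, with time as a block in limma, and a ± after one is its standard error (n = 6 arrays each). A gene was called at a Benjamini-Hochberg adjusted p under 0.05 and a difference of at least 1 in size, a doubling on this scale. Of 9649 genes tested, unnamed probe sets included, 363 were called, which is 3.76%. Of these 204 (2.11%) were higher with LPS and 159 (1.65%) lower. The higher differences reached further: 44 were at least 4-fold and 16 at least 8-fold, against 11 and 0 of the lower ones. The median difference over all genes was 0.0073. The 6 LPS arrays all lay above the 6 pIC arrays for 1016 genes (10.5%) and all below for 843 (8.74%).

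**Figure D1:**
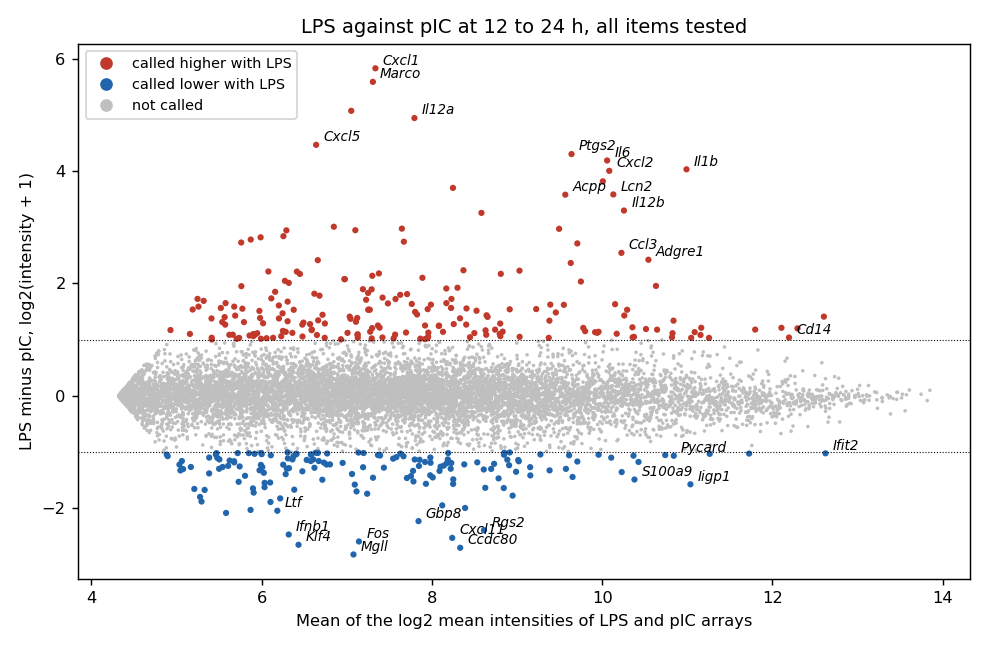
Difference between LPS and pIC at 12 to 24 h for the 9649 genes tested, on the y axis as log2(intensity + 1), against mean log2 intensity of both ligands on the x axis. Points are genes, red where called higher with LPS (204), blue where called lower (159), and dotted lines mark a difference of 1 in either direction; Cxcl1 lies highest at 5.83 and Mgll lowest at -2.82.

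The levels of the called genes were also set beside the range of the 8 unstimulated arrays, as a description with no test. Of the 204 genes higher with LPS, 83 had both means above that range, 71 had the LPS mean above it and the pIC mean within it, and 24 had the LPS mean above and the pIC mean below it. A further 12 had the LPS mean within and the pIC mean below, 10 had both within and 4 both below. Of the 159 genes lower with LPS, 37 had both means above the range, 35 had the LPS mean within and the pIC mean above, and 19 had the LPS mean below and the pIC mean above. In 37 more the LPS mean lay below and the pIC mean within, in 27 both lay below, and in 4 both lay within. The genes lower with LPS thus had no single place relative to unstimulated cells. How all genes tested lay against that range was not counted, so these numbers describe the called genes only.

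Markers of the cell type were measured in both groups. The 10 dendritic cell markers had 0 called, and their summed intensity ran from 19143 to 24222 with LPS, 20778 to 23974 with pIC and 20654 to 23583 in unstimulated cells. Itgax, the integrin CD11c, was at 1116 to 3089.6 (median 1763) with LPS and 1332 to 2545 (median 1611) with pIC, and the class II gene H2-Ab1 at 5084 to 5763 (median 5425) and 5152 to 5793 (median 5475). Markers of neutrophils moved with the ligand. Of 9 on the array 8 were tested, 5 were lower with LPS and 0 higher, and the median difference was -1.07. Their summed intensity was 1497 to 3705 with LPS, 4813 to 6947 with pIC and 7791 to 10280.1 in unstimulated cells, and 1 defining marker, Cxcr2, lay at the floor on all 12 arrays. In samples of many cells, fewer cells of a type and less RNA per cell cannot be told apart, and the part of these markers in the results below was not tested. Elane (-0.32), Mpo (-0.097) and Mmp8 (-0.70) were not called. Of 9 macrophage or monocyte markers 2 were higher and 2 lower, with sums of 28743 to 36724 with LPS and 26721 to 31295 with pIC. Lyz2 (0.0047), Csf1r (-0.054), Ly6c1 (0.057), Cd68 (-0.43) and Fcgr1 (-0.53) were not called. Markers of T, B, natural killer, mast and erythroid cells were at or near the floor: 17 of 22 lay at 20 on all 12 arrays. Of 3 fibroblast markers Col3a1 and Lum lay at the floor and Dcn, the matrix proteoglycan decorin, was higher with LPS by 1.43 ± 0.22 (adjusted p = 0.00019 in limma), at 54.3 to 149 against 25.5 to 37.9, and stood at 0.94 without the 24 h arrays.

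Among 20 inflammatory cytokine genes tested, 8 were higher with LPS and 0 lower, with a median difference of 0.53. Il12a and Il12b encode the subunits of interleukin-12, which drives T cells towards interferon gamma production. With LPS, Il12a was at 1182 and 1049 at 12 h, 917 and 1064 at 16 h, and 1372 and 1214 at 24 h. With pIC it was at 92.7 and 75.7 at 12 h, 22.9 and 27.4 at 16 h, and 22.4 and 20 at 24 h, and all 8 unstimulated arrays lay at the floor. The LPS level thus held over the 3 times, while the pIC level was near the floor from 16 h on, and the groups did not overlap. The difference was 4.94 ± 0.27 (adjusted p = 7.2e-08 in limma). Il12b was at 4099.9 and 4378 at 12 h, 3474 and 3840.3 at 16 h, and 3611 and 3629 at 24 h with LPS. It was at 421 and 395 at 12 h, 349.9 and 407 at 16 h, and 401 and 362 at 24 h with pIC, and at 38.8 to 241 in unstimulated cells. Its difference of 3.30 ± 0.06 (adjusted p = 8.1e-12) was close to even over time, at 3.37, 3.27 and 3.25 at 12, 16 and 24 h, and a second probe set gave 4.11.

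Il6, which encodes the acute-phase cytokine interleukin-6, was at 5268 and 5568 at 12 h, 3096 and 3132 at 16 h, and 4081 and 3650 at 24 h with LPS. Its pIC arrays read 571 and 496 at 12 h, 143 and 201 at 16 h, and 139 and 99.6 at 24 h. Unstimulated cells were at 20 to 62.4, so both ligands lay above them, and LPS above pIC by 4.19 ± 0.22 (adjusted p = 5.5e-08). Il1b encodes the fever-inducing cytokine interleukin-1 beta, whose precursor is cut by caspase-1. It was at 9195 and 8927 at 12 h, 6485 and 6687 at 16 h, and 8542 and 8405 at 24 h with LPS, against 670.2 and 598 at 12 h, 268 and 352 at 16 h, and 686 and 513 at 24 h with pIC. Here the pIC arrays lay within or below the unstimulated range of 388 to 1256, and the difference was 4.03 ± 0.11 (adjusted p = 8.2e-10). Il1a was higher with LPS by 2.71 ± 0.12 and Tnf by 1.62 ± 0.06. The 6 Tnf arrays of LPS overlapped those of pIC, and both were lower at later times. LPS read 1801 and 1860.2 at 12 h, 1040 and 1064 at 16 h, and 562 and 663 at 24 h, and pIC 610.4 and 629.8 at 12 h, 352 and 369 at 16 h, and 195 and 163 at 24 h. Ebi3, a subunit of interleukins 27 and 35, was higher by 1.21 and Tnfsf9, the ligand of the costimulatory receptor 4-1BB, by 1.14. Without the 24 h arrays Tnfsf9 stood at 0.94, under the minimum size. Il10, the anti-inflammatory interleukin, lay at 20 to 22.7 with LPS and at the floor on all pIC arrays, and was not called.

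**Figure D2:**
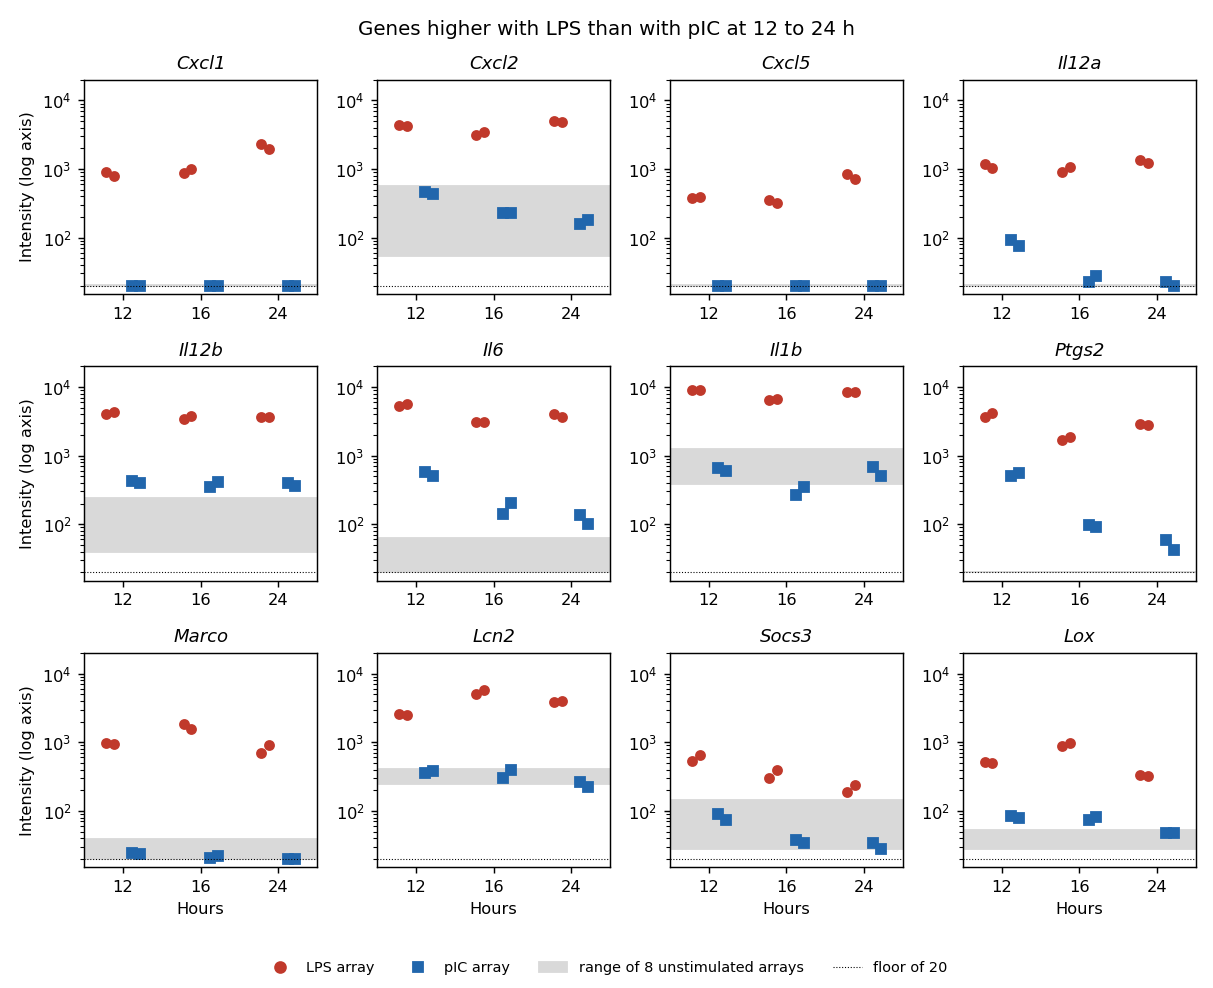
Intensity of 12 genes higher with LPS (log axis) at 12, 16 and 24 h: red circles are the 2 LPS arrays of each time, blue squares the 2 pIC arrays, the grey band the range of the 8 unstimulated arrays and the dotted line the floor of 20. In each panel all 6 LPS arrays lie above all 6 pIC arrays, and Cxcl1 and Cxcl5 lie at the floor on all pIC arrays.

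Of 22 chemokine genes tested, 5 were higher with LPS and 2 lower, with a median of 0.35. The largest difference of all named genes was that of Cxcl1, a ligand of the neutrophil receptor CXCR2. With LPS it was at 906 and 796 at 12 h, 875 and 1005 at 16 h, and 2317 and 1941 at 24 h, and all 6 pIC arrays and all 8 unstimulated arrays lay at the floor, which makes it at least 56.8-fold higher with LPS (5.83 ± 0.18, adjusted p = 1.3e-09 in limma). Cxcl5, another CXCR2 ligand, also lay at the floor on all pIC and unstimulated arrays. It was at 380 and 391 at 12 h, 349.6 and 320.5 at 16 h, and 842 and 703 at 24 h with LPS, at least 22.1-fold higher (adjusted p = 3.3e-09). Both were highest at 24 h. Cxcl2, the third CXCR2 ligand among the called genes, was at 4426 and 4236 at 12 h, 3101 and 3502 at 16 h, and 5040.5 and 4852 at 24 h with LPS. It was at 462 and 436 at 12 h, 225 and 225 at 16 h, and 158 and 178 at 24 h with pIC, within the unstimulated range of 54.4 to 562, and the difference was 4.00 ± 0.20 (adjusted p = 3.5e-08). Ccl3, which attracts monocytes and macrophages, was higher by 2.54 ± 0.08, with 4762 and 4511 at 12 h, 2301 and 2382 at 16 h, and 1330.1 and 1386 at 24 h with LPS against 891 and 1086 at 12 h, 347 and 331 at 16 h, and 219 and 222 at 24 h with pIC. Ccl17, which attracts CCR4-bearing T cells, was higher by 1.20 ± 0.14, though its 6 arrays of each ligand overlapped. Ccl5 read 13082 to 14621 (median 13843) with LPS and 12824 to 14129.5 (median 13670.3) with pIC, both above the 7920.1 to 9471 of unstimulated cells, and was not called (0.03). The CCR4 ligand gene Ccl22 stood at 0.34, also not called.

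The promoters of 3 genes that were high with LPS are shown because all of them hold a kB motif, the letters bound by NF-kB, searched on both strands as GGG, then any 3 bases, then TTCC. The sequences are from RefSeq (GRCm38.p6), run from 250 bases before to 50 after the annotated start, and have the matches in capitals. Cxcl1 lies on the plus strand at chr5:90890995-90891294 and has 3 matches, Cxcl2 on the plus strand at chr5:90903649-90903948 and has 3, and Il6 on the plus strand at chr5:30012864-30013163 and has 1. A pair of the matches in Cxcl1 and in Cxcl2 are the same letters read on both strands, shifted by 1 base.
Cxcl1: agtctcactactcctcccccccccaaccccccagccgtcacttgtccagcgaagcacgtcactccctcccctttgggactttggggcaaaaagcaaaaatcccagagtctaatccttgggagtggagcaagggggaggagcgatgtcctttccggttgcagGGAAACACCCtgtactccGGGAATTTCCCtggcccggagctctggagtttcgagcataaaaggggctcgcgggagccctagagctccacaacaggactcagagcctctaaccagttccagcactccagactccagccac
Cxcl2: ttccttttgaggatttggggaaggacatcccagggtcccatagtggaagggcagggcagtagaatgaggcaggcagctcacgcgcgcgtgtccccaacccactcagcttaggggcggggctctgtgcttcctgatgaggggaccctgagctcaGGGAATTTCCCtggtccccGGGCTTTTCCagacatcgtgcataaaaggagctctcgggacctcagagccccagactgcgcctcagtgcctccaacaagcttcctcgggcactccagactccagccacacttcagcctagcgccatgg
Il6: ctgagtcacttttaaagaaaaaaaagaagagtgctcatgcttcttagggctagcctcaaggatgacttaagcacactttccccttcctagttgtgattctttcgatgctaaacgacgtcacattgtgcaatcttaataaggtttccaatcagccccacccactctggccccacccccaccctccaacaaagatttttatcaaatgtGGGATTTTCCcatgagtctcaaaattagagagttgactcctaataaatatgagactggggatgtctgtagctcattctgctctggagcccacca
A match describes letters, not binding. Of 7096 named genes tested, 5836 had a promoter in the RefSeq table, and 439 of these (7.52%) held a kB motif. It was in 10 of 112 genes called higher with LPS (8.93%), in 12 of 103 called lower (11.7%) and in 5 of 24 higher by 4-fold or more (20.8%). These sets were chosen by the same differences, so the shares describe them only.

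Some enzyme genes of inflammation were called higher with LPS too. Of 10 prostaglandin and leukotriene enzyme genes 2 were higher and 0 lower (median 0.37). Ptgs2, the inducible cyclooxygenase, was at 3665 and 4112 at 12 h, 1691 and 1869 at 16 h, and 2915 and 2773 at 24 h with LPS. On the pIC arrays it read 504 and 552 at 12 h, 96.5 and 91.7 at 16 h, and 59.7 and 41.9 at 24 h. The unstimulated arrays lay at the floor, and the difference was 4.30 ± 0.36 (adjusted p = 1.8e-06 in limma). It was 2.88 at 12 h and 5.80 at 24 h, where the pIC level was lowest. Ptges, which makes prostaglandin E2 from the product of cyclooxygenase, was higher by 1.49 ± 0.19. Of 11 genes for arginine, nitric oxide, itaconate and tryptophan enzymes 3 were higher and 0 lower (median 0.19). These were Arg2, mitochondrial arginase, by 1.68 ± 0.17, the arginine transporter gene Slc7a2 by 1.53 ± 0.15, and Nos2, inducible nitric oxide synthase, by 1.29 ± 0.13 at 71.1 to 125 against 28.4 to 53. Acod1, which makes itaconate, was high with both, at 8955 to 10157 with LPS and 7269 to 9404 with pIC, and was not called (0.19).

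Marco, a scavenger receptor of macrophages that binds bacteria, was the second largest named difference. LPS arrays read 965 and 936 at 12 h, 1839 and 1563 at 16 h, and 707 and 906 at 24 h. With pIC they read 24.2 and 23.7 at 12 h, 20.6 and 22 at 16 h, and 20 and 20 at 24 h, within the unstimulated range of 20 to 38.3. The difference was 5.59 ± 0.15 (adjusted p = 7.3e-10 in limma), and none of the other 13 scavenger and lectin receptors tested was called higher. At an adjusted p under 0.05 in limma and any size, 5 of the 14 were higher, Marco among them, and 4 were lower. Mrc1, the mannose receptor, was lower with LPS by -1.55 ± 0.21, at 68.8 and 97.2 at 12 h, 24.1 and 20.1 at 16 h, and 20 and 20 at 24 h against 116 and 162 at 12 h, 99.4 and 78.8 at 16 h, and 63.2 and 100 at 24 h with pIC. Unstimulated cells had 1196 to 2040.2, so both ligands lay below them.

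Iron genes had the highest median of all 36 lists, 1.02, with 6 of 11 higher and 0 lower. Lcn2, lipocalin-2, binds the siderophores by which bacteria take up iron. It was at 2579.9 and 2524 at 12 h, 5044 and 5712 at 16 h, and 3810.5 and 3947 at 24 h with LPS against 361 and 378 at 12 h, 298 and 395 at 16 h, and 259.5 and 224 at 24 h with pIC, where unstimulated cells had 248 to 414, a difference of 3.58 ± 0.18 (adjusted p = 3.5e-08). Lcn2 is also known as a granule gene of neutrophils, and the neutrophil markers were lower with LPS. Cp, the copper oxidase ceruloplasmin, was higher by 2.21 ± 0.11. Hmox1, haem oxygenase, was higher by 1.96 ± 0.19 at 2674 to 3514 (median 2900.4) against 391 to 1278 (median 878). Slc40a1, the iron exporter ferroportin, was higher by 1.18 ± 0.23, with overlapping arrays, and Tfrc, the transferrin receptor, by 1.06 ± 0.14. Slc39a14, a metal importer, stood at 1.02. Tfrc rests on 1 probe set: its other one, mostly at the floor, gave 0.11, and the mean of both was 0.59. It lost its call with a pseudocount of 16 (0.85), without the second pIC array of 16 h (0.96), without the 16 h arrays (0.93) or without the 24 h arrays (0.96), and Slc40a1 without the 12 h arrays (0.84).

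A pair of feedback genes was called higher. Socs3, which blocks signalling of the interleukin-6 receptor, was at 191 to 651 (median 348) with LPS and 28 to 88.9 (median 35.6) with pIC, a difference of 2.95 ± 0.11 (adjusted p = 5.6e-09). Zc3h12a, the RNase regnase-1 that degrades Il6 and Il12b transcripts, was higher by 1.41 ± 0.07. These were 2 of 16 negative feedback regulators, with 0 lower and a median of 0.19. In the NF-kB pathway 1 of 22 was called, Nfkbiz, a nuclear cofactor of NF-kB, by 1.56 ± 0.14, while the median was 0.31. Of the largest differences, 3 more lay outside the lists. Acpp, an acid phosphatase, was at 2082 to 3176 against 146 to 377, higher by 3.58 ± 0.11. Vnn3, of the vanin family, was higher by 3.01 ± 0.07, and Trem3, of the family of triggering receptors on myeloid cells, by 2.84 ± 0.27. Among matrix genes, Lox, lysyl oxidase, which crosslinks collagen, was higher by 2.98 ± 0.13, at 325 to 972 (median 501) against 47 to 84.8 (median 76.5). Of 17 matrix genes 3 were higher and 0 lower (median 0.036). The others were Fn1, fibronectin, by 1.54 ± 0.11, and Timp1, an inhibitor of matrix proteases, by 1.25 ± 0.09. Fn1 lay below the unstimulated range of 2255 to 5156 with both, at 261 to 1605 with LPS and 80.6 to 590 with pIC. Without the time block its adjusted p in limma was 0.072.

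Genes called lower with LPS included some of the interferon response. Of 4 type I interferon genes tested 1 was called, Ifnb1, which encodes interferon beta. With LPS it was at 31.1 and 31.6 at 12 h, 20 and 20 at 16 h, and 20 and 20 at 24 h. The pIC arrays stood at 683 and 659 at 12 h, 93 and 101 at 16 h, and 35.3 and 35.6 at 24 h, and all 8 unstimulated arrays lay at the floor. The pIC level was highest at 12 h and lowest at 24 h, and LPS lay below pIC at each of them. Over the 3 times the difference was -2.46 ± 0.43 (adjusted p = 0.00053 in limma), and by time it was -4.38, -2.22 and -0.80, the last 2 with LPS at the floor and so bounds.

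Of 30 interferon-stimulated antiviral genes 0 were higher and 4 lower with LPS. The median was -0.39 and 29 of 30 differences lay below 0, and 26 had an adjusted p under 0.05 in that direction at any size, where over all genes 2442 of 9649 did. Most differences were thus under the 2-fold minimum. Daxx, a nuclear chaperone that interferon induces, was at 579 to 1479 (median 821) with LPS and 1562 to 2495 (median 2146) with pIC (-1.17 ± 0.10, adjusted p = 2.2e-06). Oas2, a synthetase of the 2-5A that activates RNase L, was at 234 to 472 (median 357) and 652 to 826 (median 780.5) (-1.16 ± 0.10), and stood at -0.98 without the 24 h arrays. Ifit2, which binds foreign RNA, was at 6331 and 6943 at 12 h, 4704 and 4766 at 16 h, and 2386 and 2496 at 24 h with LPS. With pIC it was at 9223 and 9428 at 12 h, 8992 and 8404 at 16 h, and 7783 and 7989 at 24 h, all above the unstimulated range of 599 to 2133. The pIC level was nearly flat and the LPS level lower at each later time, and the difference of -1.02 ± 0.15 was -0.49 at 12 h and -1.69 at 24 h. Cmpk2, a mitochondrial nucleotide kinase, was lower by -1.03 ± 0.15, likewise most at 24 h. Leaving out any 1 of the 4 arrays of 24 h put Ifit2 at -0.94 to -0.93 and Cmpk2 at -0.97 to -0.95, under the minimum size. Irf7, the transcription factor that amplifies interferon genes, was not called (-0.30), at 3342 to 4183 with LPS and 4098 to 5295 with pIC.

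Interferon-induced GTPases, which act against pathogens inside vacuoles, had 4 of 10 lower and 0 higher, with a median of -0.80. Gbp8, a guanylate-binding protein, was at 77.7 to 157 (median 95.2) with LPS, about its unstimulated 77.2 to 193, and at 455 to 515 (median 494) with pIC (-2.23 ± 0.11, adjusted p = 3.7e-08). Iigp1, an immunity-related GTPase, was at 1993 and 2243 at 12 h, 1199.9 and 1021 at 16 h, and 627 and 629 at 24 h with LPS. It was at 4141 and 4173 at 12 h, 3374 and 3399.8 at 16 h, and 2616 and 2883 at 24 h with pIC (-1.57 ± 0.15, adjusted p = 4.7e-06), and a second probe set gave -1.68. Tgtp1 stood at -1.02 ± 0.11 and Irgm2 at -1.005 ± 0.09. Tgtp1 has a near-identical copy, Tgtp2, from which the probe set may not tell it apart. Leaving out any 1 of the 24 h arrays put Tgtp1 at -0.98 to -0.96. Irgm2 lay between -1.07 and -0.96 over all single arrays left out, on either side of the minimum.

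Of the chemokine genes that interferon induces and whose products attract cells with the receptor CXCR3, Cxcl11 and Cxcl9 were called lower with LPS and Cxcl10 was not. Cxcl11 was at 337 and 290.4 at 12 h, 92.4 and 75 at 16 h, and 34.1 and 31.1 at 24 h with LPS. Its pIC arrays read 1038 and 1063 at 12 h, 642 and 518 at 16 h, and 250.5 and 306 at 24 h, and unstimulated cells lay at the floor (-2.52 ± 0.18, adjusted p = 6e-07). A second probe set of Cxcl11 lay at or near the floor throughout. Cxcl9 was lower by -1.17 ± 0.14, at 58.3 to 261 against 199.9 to 471, and stood at -0.92 without the 24 h arrays. Cxcl10 was at 5132 and 5659.7 at 12 h, 1733 and 1725 at 16 h, and 1047 and 1136 at 24 h with LPS and at 6400.5 and 6379.7 at 12 h, 4462 and 4585 at 16 h, and 2309 and 2087 at 24 h with pIC. Its mean difference of -0.88 ± 0.15 was under the minimum, and by time it was -0.25, -1.39 and -1.01, called at 16 and 24 h. Il15, a cytokine gene that interferon also induces, stood at -0.79 ± 0.08 and was not called.

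Promoters of 3 genes of this group are shown for the motifs they hold, in capitals, with the same window and source. Ifnb1, on the minus strand at chr4:88522745-88523044, has 1 kB motif. Tgtp1, on the minus strand at chr11:48992197-48992496, has 1 match to the interferon-stimulated response element, searched on both strands as GAAA, then any 2 bases, then GAAA. Cxcl10, on the minus strand at chr5:92348840-92349139, has 1 such element, which lies first, and 2 kB motifs.
Ifnb1: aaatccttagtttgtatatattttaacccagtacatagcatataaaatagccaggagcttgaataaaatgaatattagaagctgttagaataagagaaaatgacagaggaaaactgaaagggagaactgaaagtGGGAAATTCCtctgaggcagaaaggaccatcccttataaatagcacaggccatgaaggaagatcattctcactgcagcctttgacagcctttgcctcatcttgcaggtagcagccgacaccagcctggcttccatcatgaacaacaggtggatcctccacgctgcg
Cxcl10: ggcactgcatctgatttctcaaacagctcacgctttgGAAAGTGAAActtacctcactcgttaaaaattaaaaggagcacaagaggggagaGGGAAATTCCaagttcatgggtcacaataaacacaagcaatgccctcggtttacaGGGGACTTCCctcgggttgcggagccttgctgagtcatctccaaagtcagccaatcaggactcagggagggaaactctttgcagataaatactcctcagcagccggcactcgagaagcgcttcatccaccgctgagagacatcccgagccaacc
Tgtp1: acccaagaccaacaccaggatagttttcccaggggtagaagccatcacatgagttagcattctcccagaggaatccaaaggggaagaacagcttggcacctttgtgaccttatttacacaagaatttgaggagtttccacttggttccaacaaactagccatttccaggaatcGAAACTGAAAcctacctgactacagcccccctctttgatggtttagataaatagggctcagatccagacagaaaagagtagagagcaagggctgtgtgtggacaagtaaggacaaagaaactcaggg
The response element was in 242 of the 5836 tested genes with a promoter (4.15%), in 9 of 103 called lower with LPS (8.74%), in 2 of 112 called higher (1.79%) and in 0 of 24 higher by 4-fold or more. No test was made of these shares.

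**Figure D3:**
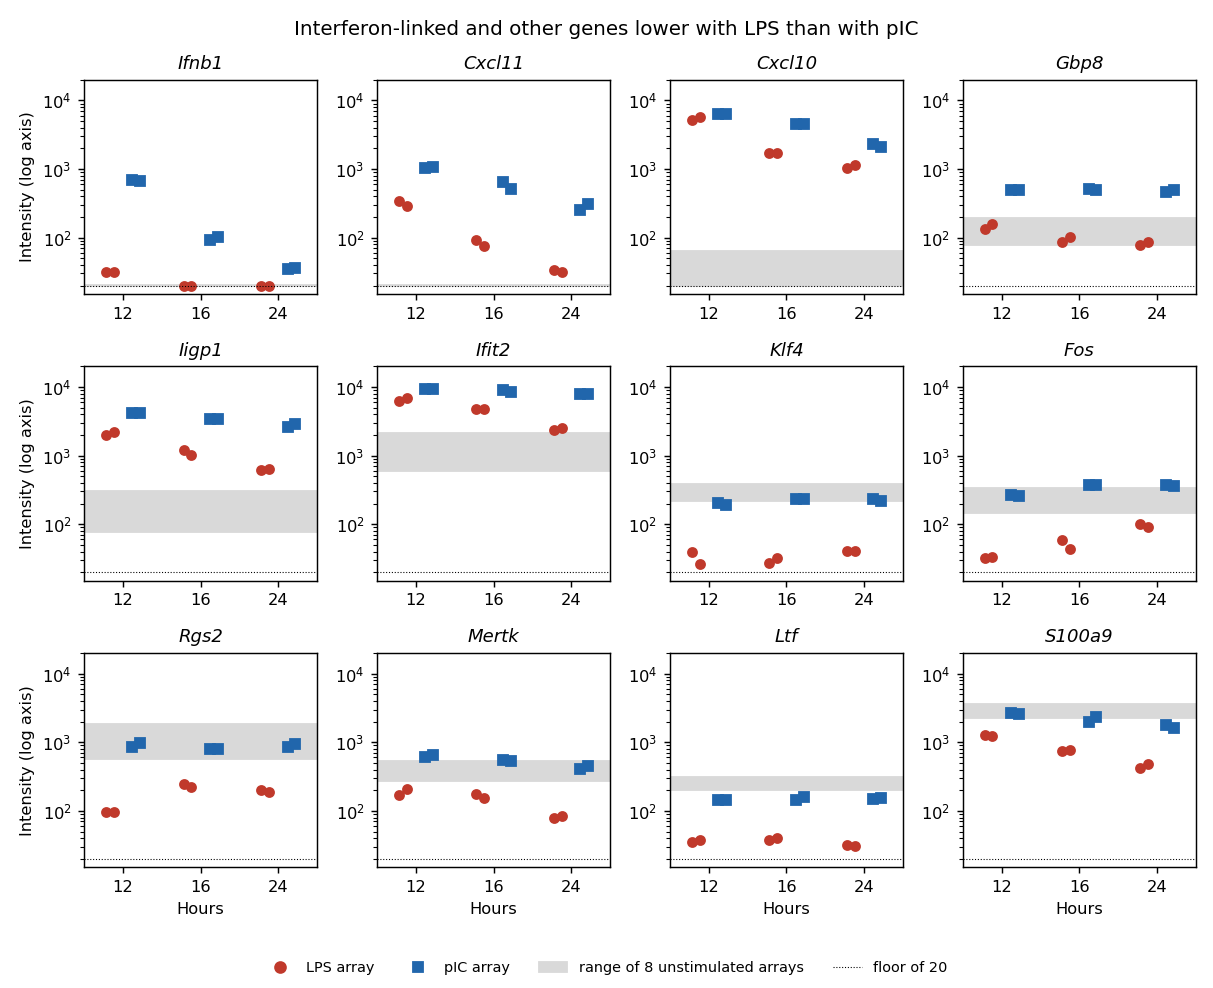
Intensity (log axis) at 12, 16 and 24 h of 12 genes lower with LPS in the mean difference, of which Cxcl10 was under the 2-fold minimum: red circles are LPS arrays, blue squares pIC arrays, the grey band the range of the 8 unstimulated arrays and the dotted line the floor of 20. Ifnb1, Cxcl11 and Cxcl10 are lower at 24 h than at 12 h under both ligands. Genes with all 6 LPS arrays below the unstimulated range include Klf4, Fos, Rgs2, Mertk and Ltf.

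Transcription factors gave the next group. Of 28 factors of dendritic cell and macrophage fate 1 was higher and 3 lower (median -0.065). Klf4, a zinc finger factor of monocyte differentiation, was at 26.5 to 40.8 (median 35.5) with LPS and 191 to 235 (median 222) with pIC, where unstimulated cells had 221 to 387 (-2.65 ± 0.10, adjusted p = 5.6e-09). Egr2 was lower by -1.46 ± 0.11 and Sox4 by -1.49 ± 0.12, but 4 other probe sets of Sox4 gave -0.68 to -0.06, and the mean of all was -0.64. Batf, an AP-1 factor that pairs with Jun proteins, was higher by 2.18 ± 0.18, at 203 to 509 against 67.1 to 87.7. Among 12 AP-1 and ATF genes Batf was the 1 higher and Fos the 1 lower. Fos, an immediate-early gene, was at 32.5 and 33.2 at 12 h, 58 and 43.2 at 16 h, and 102 and 90.1 at 24 h with LPS and at 267 and 259 at 12 h, 376 and 371 at 16 h, and 367 and 366 at 24 h with pIC (-2.59 ± 0.15, adjusted p = 1.1e-07).

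The remaining large decreases had varied roles. Mgll, the lipase that breaks down monoacylglycerols, was at 24.5 to 85.3 (median 45) with LPS and 254 to 418 (median 386) with pIC (-2.82 ± 0.20, adjusted p = 4.9e-07). Ccdc80, a gene of a secreted matrix-associated protein, was at 304 and 289 at 12 h, 75 and 72.2 at 16 h, and 52.9 and 59.3 at 24 h with LPS. On the pIC arrays it read 1001 and 1056 at 12 h, 567 and 519 at 16 h, and 553 and 692 at 24 h, and both lay below the unstimulated 1135 to 2251 (-2.70 ± 0.21). Rgs2, which ends signalling of Gq-coupled receptors, was at 96.4 to 243 (median 197) against 785 to 979 (median 856) (-2.39 ± 0.19). It was 1 of 2 lower among 16 genes of G-protein regulators and receptors, with 0 higher and a median of -0.26. Mertk, a receptor for apoptotic cells, was lower by -1.95 ± 0.11, Plac8 by -1.99 ± 0.11 and Tnfsf13, the B-cell factor APRIL, by -1.74 ± 0.08. Pcp4, a calmodulin-binding protein gene, lay at the floor on all 6 LPS arrays and at 55.3 to 91.6 with pIC, so it was at least 3.67-fold lower with LPS. Glrp1 stood at -1.82 ± 0.12. Vapb, a protein of the endoplasmic reticulum membrane, stood at -2.08 ± 0.25, but its other probe set gave -0.37, so that its size rests on 1 probe set. The granule genes Ltf (-2.04 ± 0.06) and Ngp (-1.77 ± 0.14) were among the largest decreases and are neutrophil markers. Ltf was at 34.8 and 37.2 at 12 h, 37.8 and 40.8 at 16 h, and 31.8 and 30.8 at 24 h with LPS and 142 and 144 at 12 h, 145 and 162 at 16 h, and 148 and 152 at 24 h with pIC, and at 198 to 314 in unstimulated cells. S100a9 was lower by -1.49 ± 0.12, S100a8 by -1.10 ± 0.11 and Camp by -1.04 ± 0.08. S100a8 stood at -0.93 without the 24 h arrays, and Camp at -0.98 without the second LPS array of 16 h and at -0.96 without all arrays of 16 h.

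In the amino acid stress response 3 of 19 genes were lower and 0 higher, with a median of -0.47. Trib3, a pseudokinase induced by ATF4, was at 20 to 21.5 (median 20) with LPS and 49.2 to 79.4 (median 70.7) with pIC, where unstimulated cells lay at the floor (-1.65 ± 0.09, adjusted p = 4.5e-08). Ddit3, the stress factor CHOP, was at 427 to 540.5 (median 496) against 1003 to 1349.7 (median 1237) (-1.30 ± 0.05, adjusted p = 3.3e-09). Pck2, a mitochondrial enzyme that makes phosphoenolpyruvate, stood at -1.01 ± 0.09, close to the minimum, and lay between -1.07 and -0.94 with single arrays left out.

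The receptors for both ligands were tested within a list of Toll-like receptors and adaptors, where 2 of 15 were higher and 2 lower (median -0.090). Tlr3, the receptor for double-stranded RNA, was at 189.9 and 225 at 12 h, 141 and 102 at 16 h, and 75.3 and 79.8 at 24 h with LPS and at 385 and 448 at 12 h, 366 and 368 at 16 h, and 223 and 276 at 24 h with pIC, and unstimulated cells had 44.4 to 74. It was lower with LPS by -1.43 ± 0.12 (adjusted p = 2.3e-06), and -0.77 on a second probe set. Cd180, a TLR4-like receptor, was lower by -1.22 ± 0.17 and stood at -0.98 without the 16 h arrays. Tlr1, the partner of TLR2 for lipopeptides, was higher by 1.62 ± 0.09, at 1065 to 1691 (median 1164) against 277 to 566 (median 461). Cd14, the LPS co-receptor, was higher by 1.04 ± 0.06 and stood at 0.98 without the 24 h arrays. Tlr4 was at 148 to 274 (median 185) with LPS and 269.5 to 337 (median 293) with pIC, both below the unstimulated 378 to 602, and was not called (-0.65). Neither were Tlr2 (-0.09) and Myd88 (-0.37).

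Among surface molecules of antigen presentation few differences reached the minimum size. Of 16 costimulatory and checkpoint ligands 2 were higher and 1 lower (median -0.069). Icosl, the ligand of ICOS, was higher by 1.13 ± 0.14 and stood at 0.90 without the 12 h arrays. Cd200r1, an inhibitory receptor of myeloid cells, was lower by -1.47 ± 0.07, at 211 to 317 (median 265) against 647 to 862 (median 703). Cd40 stood just under the minimum, at 0.996 ± 0.12 and adjusted p = 3.3e-05, and between 0.92 and 1.06 with single arrays left out. Cd80 at 0.89, Cd86 at -0.56, Cd83 at -0.21 and Cd274, which encodes PD-L1, at -0.25 were not called. Other probe sets of Cd80 gave 0.54 and -0.48, so its direction differed between probe sets. In the class II list 1 of 11 was called, H2-Oa, a subunit of the peptide-loading modulator DO, lower by -1.09 ± 0.07, and the list median was -0.31. At any size 8 of the 11 had an adjusted p under 0.05 in the lower direction and 0 lay above 0. Class I and peptide loading genes had 0 of 14 called (median -0.15), with 2 higher and 8 lower at that threshold and any size. Of 4 chemokine receptors 2 were lower, Ccr2 by -1.67 ± 0.06 and Ccr1 by -1.17 ± 0.11, at -0.96 without the 16 h arrays. Ccr2, the CCL2 receptor of monocytes, was at 20 to 88.5 with LPS and 65.1 to 269.5 with pIC, and at 1574 to 2297 in unstimulated cells. Adgre1, the macrophage marker F4/80, was higher by 2.42 ± 0.10, at 2163 to 4632 (median 3647) with LPS and 459.9 to 843 (median 613) with pIC. C3ar1, the complement C3a receptor, was lower by -1.30 ± 0.27 as 1 of 12 complement genes, but stood at -0.68 without the 24 h arrays.

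Of the 36 lists, 11 had no called member. They held 186 tested genes and covered sterol synthesis and efflux, glycolysis, the TCA cycle, the respiratory chain, ribosomal proteins, lysosomal proteases, chaperones of the endoplasmic reticulum, class I genes, interferon signalling factors and Fc gamma receptors. Of their medians, the highest were 0.30 for the Fc gamma receptors and 0.29 for the chaperones and for sterol synthesis, and the lowest -0.15 for class I genes. Some differed at an adjusted p under 0.05 in limma and any size. Sterol synthesis had 11 of 18 higher and 0 lower, and the chaperones 11 of 18 higher and 1 lower. Lysosomal genes had 2 of 20 higher and 10 lower, and ribosomal proteins 1 of 20 higher and 8 lower. Over all 9649 genes 2731 were higher and 2442 lower.

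**Figure D4:**
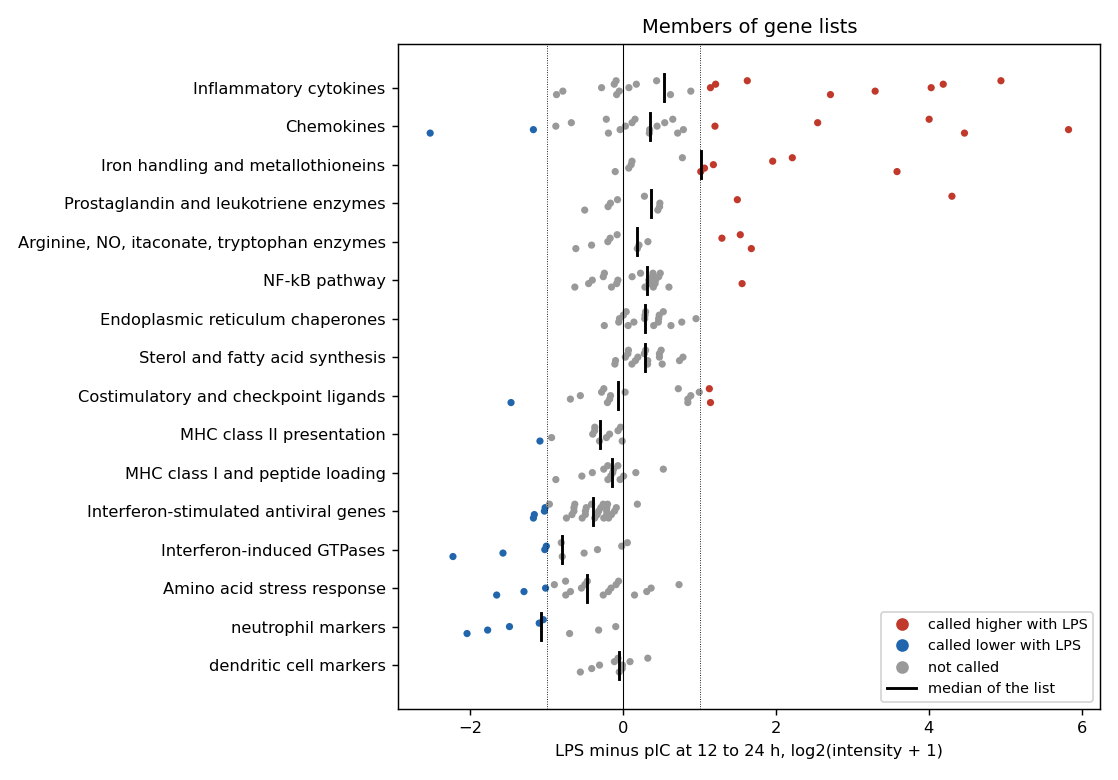
Difference between LPS and pIC at 12 to 24 h of each tested member of 16 gene lists (x axis, log2(intensity + 1)), with red points called higher with LPS, blue points called lower, grey points not called and black bars at list medians. The medians run from 1.02 for iron genes to -1.07 for neutrophil markers, and those of both interferon lists lie below 0.

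The 3 times were also compared singly, 2 arrays against 2, with the spread pooled over the 6 groups. At 12 h 381 genes were called (3.95%), 220 higher (2.28%) and 161 lower (1.67%). At 16 h 416 were called (4.31%), 227 higher (2.35%) and 189 lower (1.96%). At 24 h 476 were called (4.93%), 248 higher (2.57%) and 228 lower (2.36%). Of these, 113 were higher and 58 lower at all 3 times. Antiviral genes had 0, 3 and 6 of 30 lower at 12, 16 and 24 h, with medians of -0.26, -0.40 and -0.58. The GTPases had 1, 4 and 5 of 10 lower, with medians of -0.45, -0.95 and -1.02. Inflammatory cytokines had 7, 8 and 9 of 20 higher and 1, 2 and 1 lower, with medians of 0.73, 0.14 and 0.89. Neutrophil markers had medians of -0.84, -1.17 and -1.41.

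A change of the difference between these times was tested as the interaction of ligand and time in limma, and 275 genes were called (2.85%), of which 99 were also called in the mean difference. The smallest adjusted p was that of Ifnb1 (8.1e-08), described above. Plagl1, a zinc finger transcription factor, lay at the floor on all 6 LPS arrays. The pIC arrays stood at 429.5 and 418 at 12 h, 77.2 and 62.3 at 16 h, and 20 and 20 at 24 h (adjusted p of the interaction 1.7e-07). Vegfa, the vascular growth factor, was at 21.9 and 20 at 12 h, 32.7 and 38.2 at 16 h, and 144 and 137 at 24 h with LPS and at 54.3 and 51 at 12 h, 91.8 and 90.6 at 16 h, and 95.3 and 98.2 at 24 h with pIC, so that its difference was -1.29, -1.34 and 0.53 at 12, 16 and 24 h. Over the 3 times a second probe set of Vegfa gave a mean difference of -0.21, against -0.70 for the one used, and was not compared by time. Egr1, an immediate-early factor, had the same order of differences as Vegfa, at -0.97, -1.50 and 0.94, with its LPS arrays at or near the floor at 12 and 16 h. The LPS means of both stood below those of pIC at 12 and 16 h and above them at 24 h.

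Mgst2, a glutathione transferase of the endoplasmic reticulum, was at 56.1 and 46.5 at 12 h, 434 and 421 at 16 h, and 895 and 759.6 at 24 h with LPS. It was at 113 and 104 at 12 h, 140.5 and 164 at 16 h, and 173 and 166 at 24 h with pIC. It was the 1 gene called in opposite directions at different times, at -1.07, 1.49 and 2.28 (adjusted p of the interaction 1.1e-05). Ccl2, the monocyte-attracting chemokine, had differences of 1.45 at 12 h, 1.04 at 16 h and -0.85 at 24 h. Its LPS arrays were at 2002 and 2072 at 12 h, 607 and 626 at 16 h, and 319 and 309 at 24 h, and its pIC arrays at 669.6 and 832 at 12 h, 293 and 307 at 16 h, and 571 and 563 at 24 h. Trip13, an ATPase that remodels checkpoint proteins of the cell cycle, had -0.12, -0.55 and 1.23. Thbs4, a thrombospondin, was above the floor with LPS mainly at 12 h (20 to 56.4 over the 6 arrays) and at the floor on all pIC arrays.

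Between the middle times of 4, 6 and 8 h and the late times, the difference itself was compared over 24 arrays, with no array in both windows. It changed for 266 of 9905 genes (2.69%), towards higher with LPS for 157 (1.59%) and towards lower for 109 (1.1%). The largest shifts upwards were of interferon alpha genes that stood high with pIC at the middle times. Ifna2 lay at the floor on all LPS arrays of both windows. With pIC it was at 389.9 to 811 (median 575) at 4 to 8 h and at 86.7 and 116 at 12 h, 20 and 20 at 16 h, and 20 and 20 at 24 h, a shift of 3.96 ± 0.08 (adjusted p = 4.5e-15 in limma). Ifna4 was at 116 to 233 (median 152) at 4 to 8 h with pIC and above the floor at 12 h only afterwards (2.63 ± 0.05). Interferon alpha genes are near-identical in sequence, so each probe set may read several of them, and the LPS values are bounds.

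Other genes moved further apart with LPS on top. Marco was at 208 to 602 (median 371) with LPS and 25.7 to 39.9 (median 30.4) with pIC at 4 to 8 h, so its difference grew by 2.11 ± 0.11. Hmox1 was at 286 to 976 (median 410.2) with LPS and 399 to 644 (median 515) with pIC at 4 to 8 h, a difference of -0.093, and shifted by 2.05 ± 0.22. Trem3 shifted by 1.96 ± 0.15 and Dnmt3l, a cofactor of DNA methyltransferases, by 2.35 ± 0.08, to 108 to 263 with LPS against 20 to 26 with pIC.

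In the other direction, 6 genes are named whose mean difference lay above 0 at 4 to 8 h and below 0 at 12 to 24 h, where Rnf225 and Hcar2 were called, Rnf225 not without the 16 h arrays (-0.87). At single late times 2 of them lay above 0, Fabp3 at 12 h (0.064) and Serpinb2 at 24 h (0.57). Edn1, the vasoconstrictor endothelin-1, was at 208 to 791 (median 455) with LPS and 20.4 to 106 (median 58.2) with pIC at 4 to 8 h. Late it was at 26.9 and 24 at 12 h, 20 and 20 at 16 h, and 20 and 20 at 24 h with LPS and 107 and 72 at 12 h, 24.3 and 27.1 at 16 h, and 24.2 and 20.7 at 24 h with pIC, a shift of -3.84 ± 0.13 (adjusted p = 4.5e-12). Fabp3, a fatty acid carrier, was at 317 to 458 (median 437) and 51.6 to 236 (median 136) at 4 to 8 h and shifted by -2.69 ± 0.09. Hcar2, the receptor for niacin and ketone bodies, was at 410.3 to 674 (median 623) and 131 to 268 (median 180.2) and shifted by -2.59 ± 0.05. Its late difference of -1.01 ± 0.17 was called but stood at -0.93 to -0.89 without any 1 array of 16 h. Cst7, an inhibitor of lysosomal proteases, shifted by -2.27 ± 0.06, Rnf225 by -2.19 ± 0.19 and Serpinb2, an inhibitor of plasminogen activators, by -2.11 ± 0.19.

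**Figure D5:**
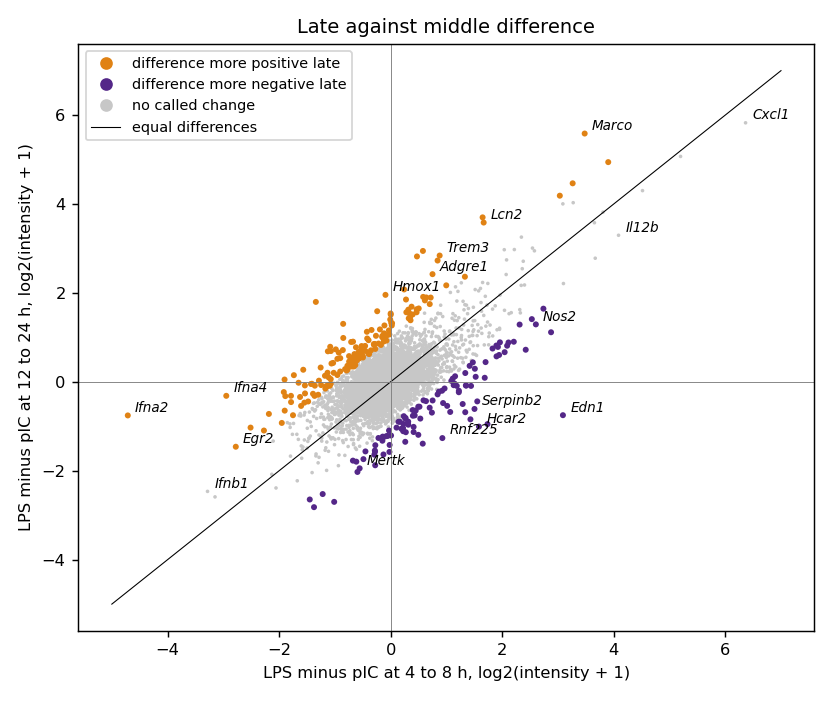
Difference between LPS and pIC at 12 to 24 h (y axis) against that at 4 to 8 h (x axis), both as log2(intensity + 1), for genes measured with the same probe set in both windows. Orange points moved upwards, purple points downwards by the call rule, and the line marks equal differences; Ifna2 and Edn1 lie farthest from it, with shifts of 3.96 and -3.84.

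The late arrays of the other 3 ligands (6 for PAM and GRD, 4 for CpG) were set beside these groups as a description with no test. CpG lacked a second array at 16 h and at 24 h, so its means and medians lean towards 12 h. For the 204 genes higher with LPS than with pIC, the log2 mean was nearer to LPS than to pIC in 179 with PAM, 196 with CpG and 180 with GRD, and 174 were nearer with all 3. For the 159 genes lower with LPS the numbers were 148, 150 and 147, and 144 with all 3. The log2 mean of the unstimulated arrays was nearer to LPS in 38 of the 204 higher and 83 of the 159 lower genes. Such counts were not made over all genes tested. Cxcl1 had a late median of 3509 with PAM, 2027 with CpG and 3029.6 with GRD. Ifit2 had 115, 2824 and 670.4, and Gbp8 had 38.5, 92.7 and 57.9. Klf4 had 38.8, 24.4 and 34, each below the 191 to 235 of pIC. In 5 of the higher and 6 of the lower genes none of the 3 was nearer to LPS.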

How the data were processed

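RNA of mouse primary bone marrow dendritic cells was, per the labels, labelled with biotin for Affymetrix mouse HT arrays, which have 1 colour. The deposited values are linear intensities of 18858 probe sets made by the authors with RMA, per the submitters' processing notes. RMA subtracts background, brings arrays to a common distribution and combines the probes of a set. Its version and the step that set the floor of 20 are not given in the sources used here.

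Probe sets above the floor on at least 2 of the 12 arrays were kept. For each symbol the probe set with the highest mean log2 value over all 96 arrays was used, which gave 7096 named genes and 2553 unnamed probe sets. Symbols came from the platform annotation, with a single symbol for 15044 probe sets, more than 1 for 257 and none for 3557. By Entrez identifier 15024 were matched to RefSeq (GRCm38.p6), and 0 symbols changed. Differences of log2(intensity + 1) were fitted in limma 3.58.1 under R 4.3.3 with no further normalization, with time as a block (8 residual degrees of freedom) or with 1 mean per ligand and time (6), and moderated. Tests were two-sided, and folds of dim genes are understated on this scale.

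The comparison, the 36 gene lists, the 10 marker lists and the panel of 50 genes (42 tested) were chosen with earlier results of these data known. The text names the 15 largest called differences each way without overlap, up to 5 called members per list, the panel, up to 6 shifts each way between windows, 8 interactions, and marker genes. The fits were tested on simulated data.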

Additional observations from a re-analysis of the deposited data

Results flagged for a closer look

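No array of the genes with the largest differences lay far enough from the other 5 arrays of its ligand to stand apart, in 57 groups of 6 arrays looked at. Each group spans 3 times with 2 arrays each, so a change with time can hide a stray array. These genes were also chosen for groups that did not overlap, so the lack of flags says little. The genes below are given because their difference between LPS and pIC itself differed between times, by the interaction test or by the test between windows in limma.

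Within 12 to 24 h, the 3 differences of a gene spanned 4.34 for Plagl1, 3.58 for Ifnb1 and 3.35 for Mgst2 on the log2 scale. They spanned 2.44 for Egr1, 2.30 for Ccl2, 1.88 for Vegfa, 1.77 for Trip13 and 1.40 for Thbs4. The adjusted p of the interaction ran from 8.1e-08 for Ifnb1 to 2.7e-05 for Vegfa among these. For Plagl1, Ifnb1, Egr1, Vegfa and Thbs4 at least 1 ligand lay at or near the floor at some of the times, and for Plagl1 at 24 h and Thbs4 at 16 and 24 h both did, so that these spans depend on the floor.

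Between 4 to 8 h and 12 to 24 h, the difference moved upwards by 3.96 for Ifna2, 2.63 for Ifna4, 2.35 for Dnmt3l, 2.11 for Marco, 2.05 for Hmox1 and 1.96 for Trem3. It moved by -3.84 for Edn1, -2.69 for Fabp3, -2.59 for Hcar2, -2.27 for Cst7, -2.19 for Rnf225 and -2.11 for Serpinb2. The interferon alpha genes Ifna2 and Ifna4 lay at the floor on all LPS arrays of both windows, and all but the 12 h arrays of pIC lay there in the late window.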

How the results depend on the processing

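Under 26 other settings, 65 of 91 called genes named by the rule above kept their direction and their call under each that tested them. Ebi3 and Slc39a14, called but named outside that rule, were not followed through these settings. The setting that asks for all arrays above the floor left out genes with arrays at 20. Among these were Cxcl1, Cxcl5, Marco, Il12a and Ifnb1, so they were not tested under it. With single arrays left out, the mean difference gave 348 to 370 calls, 199 to 209 higher and 149 to 161 lower. In the same way the single times gave 380 to 397 at 12 h, 416 to 445 at 16 h and 469 to 528 at 24 h, the interaction 230 to 290, and the change between windows 262 to 278. With the replicate block 363 genes were called, 204 higher and 159 lower, and the interaction gave 273 in place of 275. The 2 arrays of a group carry the same replicate numbers under both ligands, but deviations of same-numbered arrays correlated at 0.11, -0.13 and -0.004 at 12, 16 and 24 h, so the numbers were not taken as pairs. Every other count of calls was the same under that block. With no minimum size 5173 were called, 2731 higher and 2442 lower, with 3736 at 12 h, 4070 at 16 h, 4180 at 24 h, 1461 interactions and 4810 changes between windows. With a pseudocount of 16 the mean difference called 275 genes, 169 higher and 106 lower. In that setting 277 were called at 12 h, 330 at 16 h and 378 at 24 h. The interaction then called 175 and the change between windows 186. The direction changed in genes that were not called. Ccl5 stood at -0.0079 and Lyz2 at -0.033 with arrays centred on their median. Without the 12 h arrays Csf1r stood at 0.081 and Itgax at -0.00036, and without the 16 h arrays Lyz2 at -0.011 and Tlr2 at 0.0016. Without the 24 h arrays H2-Ab1 stood at 0.017, Lyz2 at -0.00032 and Trip13 at -0.34. With single arrays left out H2-Ab1 lay between -0.038 and 0.0045 and Lyz2 between -0.0071 and 0.016. The cause of these changes was not tested. The floor limits what can be measured in dim genes: of the called genes, 5 had all pIC arrays and 6 all LPS arrays at 20.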

Other observations

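Genes of growth and adhesion differed in small numbers and in both directions. Ccnd2, a D-type cyclin, was higher with LPS by 1.08 ± 0.05 on the log2 scale, at 1958 to 5037 (median 2882) with LPS and 1039 to 2419.9 (median 1217) with pIC, and 5 other probe sets gave 1.06 to 1.31. Ccnd1, another D-type cyclin, was lower by -1.54 ± 0.12, at 26.5 to 56.9 (median 36.8) against 86.7 to 134 (median 121), and both other probe sets also lay below -1.9. Mxd1, which opposes Myc, was lower by -1.32 ± 0.12. These were the called members of 21 genes of growth arrest, G1 and p53 targets, whose median was -0.14. Of 24 cell cycle and replication genes 1 was higher and 2 lower (median 0.050). Tyms, thymidylate synthase, was higher by 1.78 ± 0.11, while Ccne1, cyclin E1, stood at -1.02 ± 0.18 and Bub1b, a kinase of the spindle checkpoint, at -1.02 ± 0.14. Ccne1 and Bub1b lost the call without any 1 array of 12 h, with -0.97 to -0.89 for Ccne1 and -0.96 to -0.93 for Bub1b. Bub1b stood at -0.999 without the first pIC array of 16 h.

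Cd81, a tetraspanin, was higher with LPS by 1.65 ± 0.08 and Itgal, the integrin alpha chain of LFA-1, by 1.53 ± 0.09, as the 2 called of 18 integrin and adhesion genes (median 0.0036). Pycard, the adaptor ASC of inflammasomes, was lower by -1.06 ± 0.05, at 1078 to 1399 (median 1321) with LPS and 2364 to 3007 (median 2565) with pIC. It was the 1 called of 17 apoptosis and survival genes (median -0.12), and its second probe set lay at or near the floor. Ch25h, which makes 25-hydroxycholesterol, stood at 0.37 and was not called, with 539.7 to 2277 with LPS and 453 to 1443 with pIC, all above the 28.4 to 54.1 of unstimulated cells.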
